A study of Mus musculus with 2 samples.

Results

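Hedgehog signalling was described through 9 genes: the ligand Shh, the receptor Ptch1, the transducer Smo, the co-receptors Gas1, Cdon and Boc, and the transcription factors Gli1, Gli2 and Gli3. They were chosen by name, and all 9 were measured, out of 43346 mouse gene IDs in the tables. The RNA came from the facial prominence of B6NCrl embryos of both sexes at 12.5 days. Replicate 1 was a pool of 120 embryos and replicate 2 a pool of 88. The labels name no treatment, transgene or mutation. There was 1 group of 2 libraries, so levels could be described but no conditions compared. Each library is a pool of whole prominences, in which epithelium, mesenchyme and other tissues are mixed.

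In Hedgehog signalling a secreted ligand binds Patched. Without ligand, Patched holds Smoothened inactive and the Gli proteins, above all Gli3, are cut into repressors. When ligand binds, helped by Gas1, Cdon and Boc, Smoothened acts at the primary cilium and full-length Gli2 and Gli3 activate genes such as Gli1 and Ptch1. In the face, Shh is made by epithelium and received by the mesenchyme beneath it, and loss of the signal narrows the midface. RNA levels do not tell which form of a Gli protein is present.

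The tables summed to 27890681 expected counts in replicate 1 and 39969716 in replicate 2. Levels are given in TPM, which divides the counts by length, so that genes can be compared. A gene with 0 counts could still have up to 3, which for 1000 bases of effective length is 0.172 TPM in replicate 1 and 0.121 TPM in replicate 2. Facial mesenchyme markers were present (each of the 5 had at least 1 TPM in the pair of libraries, and they summed to 745 and 771 TPM), as were epithelial markers (6 of 6, summing to 308 and 304 TPM). Other sites of Hedgehog ligand production were also checked. None of the 4 floor plate and notochord markers (Foxa2, Foxa1, Nkx2-2, T) reached 1 TPM in both libraries, and their summed level was 3.18 and 2.59 TPM. Shh itself had 1.32 and 1.37 TPM, which is below that sum. Its mean of 1.35 TPM was above that of each single marker, of which Foxa1 was highest (mean 1.06 TPM, 1.37 and 0.740 TPM). The part of such tissue in the Shh level was not tested. The 4 ventral forebrain markers summed to 19.2 and 17.4 TPM, and cartilage and Schwann cell precursor markers all reached 1 TPM (4 of 4 each). Of all protein-coding genes 61.8% reached 1 TPM in both libraries, so such marker counts alone do not establish a tissue.

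Several results below concern which transcript of a gene was measured, so the sequences that set these transcripts apart are shown first. Ptch1-201 and Ptch1-202 begin at different first exons on the minus strand of chromosome 13 and have different start codons. The first 60 coding bases of each are printed 5′ to 3′ from the GENCODE M21 transcripts (GRCm38), with the start codon in capitals. That of Ptch1-201 lies in its own first exon (chr13:63565461-63565520), and that of Ptch1-202 in an internal exon that both transcripts contain (chr13:63548067-63548126).
Ptch1-201: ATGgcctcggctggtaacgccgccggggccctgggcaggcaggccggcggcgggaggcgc
Ptch1-202: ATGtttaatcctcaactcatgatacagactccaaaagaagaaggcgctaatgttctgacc
The coding sequence of Ptch1-202 is therefore shorter, and 411 coding bases of Ptch1-201 lie outside it.

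For Gli3 the point of divergence is the end of an exon on the plus strand of chromosome 13 (chr13:15662501-15662530). The last 30 bases of that exon are in lower case, and the capitals mark the next 30 bases of each transcript. Gli3-201 joins a later exon (chr13:15713499-15713528), whereas Gli3-203, annotated as a retained intron with no coding sequence, reads on into the intron (chr13:15662531-15662560).
Gli3-201: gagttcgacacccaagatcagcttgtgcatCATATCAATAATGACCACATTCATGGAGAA
Gli3-203: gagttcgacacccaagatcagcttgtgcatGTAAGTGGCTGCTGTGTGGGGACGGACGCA
Of the 1245 exonic bases of Gli3-203 outside Gli3-201, 988 lie past this exon end.

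All 9 genes reached 1 TPM in both libraries, which 61.8% of the 21461 protein-coding genes did. All but Shh, 8 of the 9, had a mean of 10 TPM or more, a level reached by 42.4% of protein-coding genes. Their median was 17.1 TPM, beside 5.22 TPM over all protein-coding genes. The co-receptor Gas1 stood highest and the ligand Shh lowest, and the 9 genes held the same order in both libraries. In bulk RNA, fewer cells of a type and less RNA per cell cannot be told apart.

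**Figure D1:**
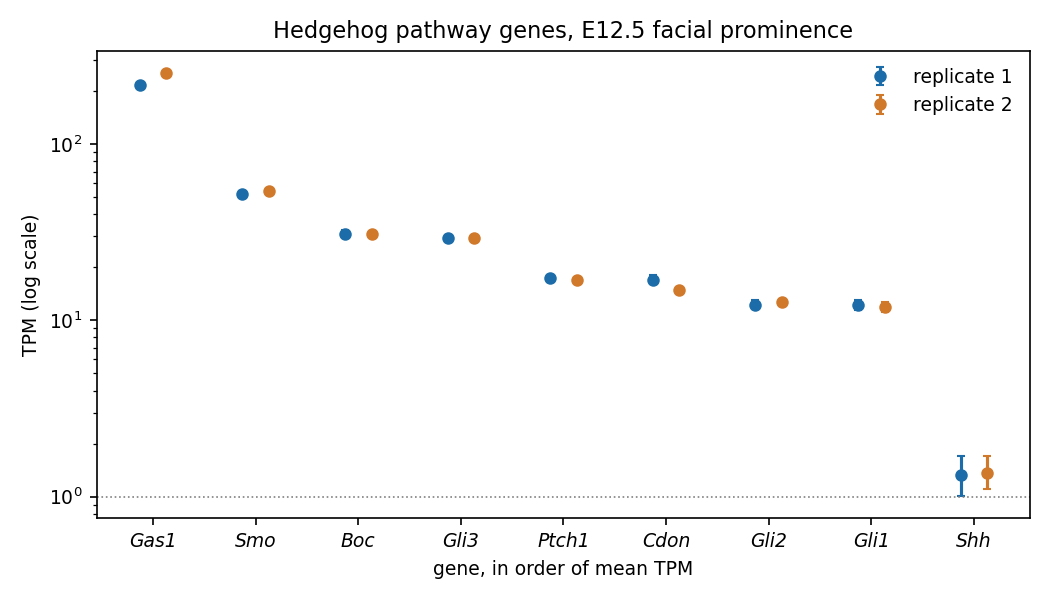
TPM (log axis) of each gene in replicate 1 and replicate 2, with 95% Poisson intervals of the counts as bars and 1 TPM as a dotted line. Gas1 stands at 216 and 253 TPM and Shh at 1.32 and 1.37 TPM, and the other 7 genes lie between 11.9 and 54.0 TPM.

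Shh, the secreted ligand (chromosome 5, 28456815 to 28467256, minus strand, GRCm38), had 1.32 TPM in replicate 1 and 1.37 TPM in replicate 2. These levels rested on 60 and 88 expected counts, and their 95% Poisson intervals ran from 1.01 to 1.70 TPM and from 1.10 to 1.69 TPM. The libraries were thus not distinguishable in Shh, which lay above 39.1% of protein-coding genes in mean TPM. Nkx2-1, a marker of the ventral forebrain where Shh is also made, had 3.66 TPM in replicate 1 and 1.34 TPM in replicate 2, a fold of 0.366, while the fold for Shh was 1.04. The part of forebrain RNA in the Shh level was not tested further.

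Dhh was about as scarce as Shh, and Ihh was scarcer. Dhh, the ligand of Schwann cells and gonads, had 1.37 and 0.910 TPM (54 and 51 counts). Ihh, the ligand of growing cartilage, had 0.140 and 0.490 TPM (6 and 29 counts). The 4 Schwann cell precursor markers summed to 52.3 and 49.6 TPM and the 4 cartilage markers to 574 and 530 TPM, and their part in the Dhh and Ihh levels was not tested. Of the summed TPM of the 3 ligands, 2.83 and 2.77, Shh took 46.6% and 49.5%. Shh stood 5.13-fold above Ihh (log2 ratio 2.36 ± 1.24, SD, n = 2), but the ratio was 3.24 in replicate 1 and 1.48 in replicate 2, and 0.85 with a pseudocount of 1 TPM. Shh and Dhh did not separate (0.27 ± 0.46), since Dhh was the higher of the pair in replicate 1 and Shh in replicate 2. A ratio was called when its mean log2 was past 1 in either direction with the same sign in both libraries.

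Ptch1, the receptor that represses the pathway and is also its target (chromosome 13, 63508328 to 63573598), had 17.3 TPM in replicate 1 and 16.9 TPM in replicate 2. Smo, the transducer (chromosome 6, 29735503 to 29761365), had 52.5 and 54.0 TPM, and stood 3.12-fold above Ptch1 (log2 ratio of Ptch1 over Smo -1.64 ± 0.05). In counts not divided by length that ratio was -0.82 and would not be called. The receptor lay far above the ligand, with Ptch1 12.7-fold over Shh (3.67 ± 0.06).

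Hhip, a membrane protein that binds and sequesters ligand and is a pathway target, had 3.77 TPM in replicate 1 and 6.33 TPM in replicate 2. Ptch1 stood 3.49-fold above it (1.80 ± 0.55).

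Among the co-receptors Gas1, a membrane protein anchored by a lipid, was the most abundant. Gas1 (chromosome 13, 60174405 to 60177365) had 216 TPM in replicate 1 and 253 TPM in replicate 2, above 97.3% of protein-coding genes. The 95% Poisson intervals, 212 to 220 and 249 to 257 TPM, did not overlap. The libraries thus differed in Gas1, with a fold of 1.17, by more than the counting error that these intervals hold. Boc, an immunoglobulin-family receptor (chromosome 16, 44485049 to 44558897), had 31.1 and 30.8 TPM. Cdon, its relative (chromosome 9, 35421128 to 35507652), had 16.9 and 14.8 TPM.

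Gas1 took 81.8% and 84.7% of the summed co-receptor TPM, Boc 11.8% and 10.3%, and Cdon 6.41% and 4.95%. Gas1 was 7.56-fold above Boc (2.92 ± 0.17), 14.8-fold above Cdon (3.89 ± 0.30) and 13.7-fold above Ptch1 (3.78 ± 0.18). Boc over Cdon had 0.87 in replicate 1 and 1.06 in replicate 2, and its mean of 0.97 was under the threshold.

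Gli3, the main repressor of the family (chromosome 13, 15463235 to 15730026), was the most abundant Gli gene, with 29.5 TPM in replicate 1 and 29.4 TPM in replicate 2. Gli2, the main activator (chromosome 1, 118834132 to 119053619), had 12.3 and 12.7 TPM. Gli1, an activator whose transcription is itself a readout of the pathway (chromosome 10, 127329882 to 127341974), had 12.2 and 11.9 TPM. The 3 factors summed to 54.0 TPM in each library.

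Gli3 therefore held 54.6% and 54.4% of Gli TPM, Gli2 22.7% and 23.5%, and Gli1 22.6% and 22.1%. Gli3 stood 2.36-fold above Gli2 (log2 ratio 1.24 ± 0.04) and 2.44-fold above Gli1 (1.29 ± 0.02). Gli2 and Gli1 were 0.05 ± 0.06 apart on the log2 scale. For the targets Ptch1 and Gli1 the log2 ratio was 0.50 in each library (not called), but 2 libraries cannot show whether they vary together. Sufu, the cytoplasmic inhibitor that binds Gli proteins, had 36.8 and 38.8 TPM, and Gli3 over Sufu was -0.36 ± 0.05, not called. That ratio changed sign, to 0.16, in counts not divided by length.

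Going down the order Gas1, Smo, Boc, Gli3, Ptch1, Cdon, Gli2, Gli1 and Shh, neighbours were separated by 4.41-fold, 1.72-fold, 1.05-fold, 1.73-fold, 1.07-fold, 1.27-fold, 1.03-fold and 8.98-fold in mean TPM. The library values of 7 of these 8 neighbouring pairs did not overlap. Ptch1 and Cdon were the exception. The Poisson intervals of Boc (29.7 to 31.8 TPM) and Gli3 (28.5 to 30.3 TPM) overlapped in replicate 2. So did those of Gli2 (12.1 to 13.3 TPM) and Gli1 (11.2 to 12.7 TPM). The intervals of both pairs overlapped in replicate 1 as well. An overlap of intervals does not measure the gap, so whether these gaps pass counting error was not tested. A likeness of pattern with other genes was not sought, since 2 points always lie on a line.

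The pools differed little in these genes. None of the 9 passed a log2 difference of 1 between the libraries in TPM with a pseudocount of 1, and 0.252% of the 13477 protein-coding genes with a mean of 1 TPM or more did. All 9 lay within 0.25 of 0 on the log2 scale, as did 88.2% of those genes. Gas1 had the largest difference, 0.23, and Cdon followed at -0.18. The counts themselves were compared through a 95% Clopper-Pearson interval of the ratio of counts scaled to library size (CPM), which compares these libraries and not conditions. It left out 0 on the log2 scale for 2 of the 9, Gas1 (0.21, from 0.18 to 0.25) and Ptch1 (-0.16, from -0.24 to -0.07). Among all protein-coding genes at 1 TPM or more it did so for 29.5%.

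**Figure D2:**
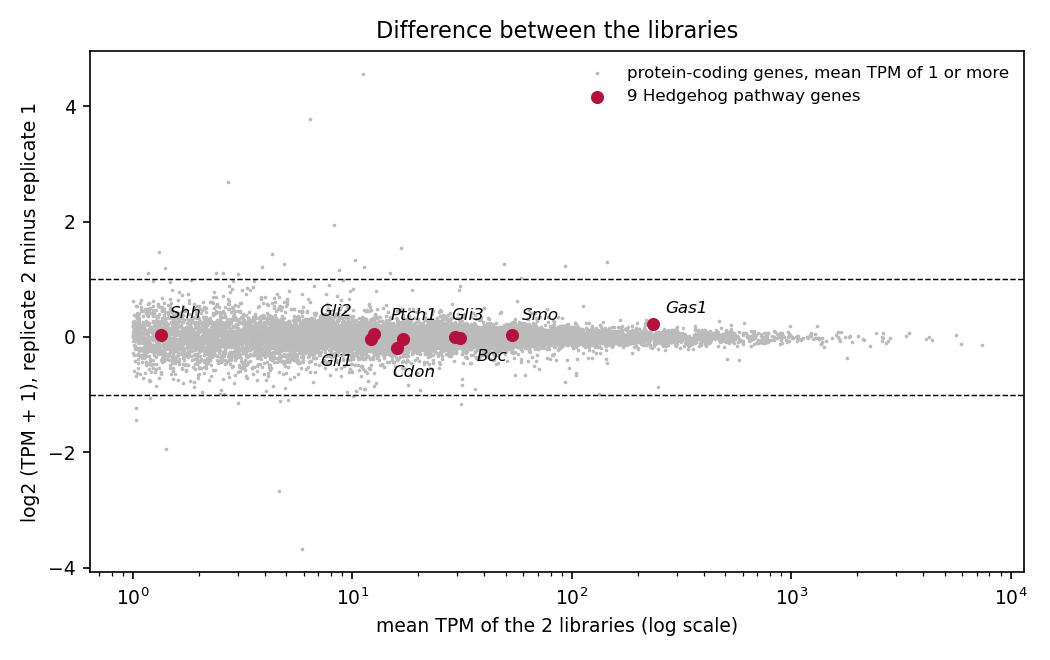
Log2 difference of TPM + 1 (replicate 2 minus replicate 1) against mean TPM (log axis) for protein-coding genes with a mean of 1 TPM or more (grey), with the 9 Hedgehog genes in red and the thresholds of 1 and -1 dashed. The 9 genes lie between -0.18 and 0.23, well inside the thresholds.

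For Cdon and Ptch1 the difference between the libraries depended on whether length was divided out. In CPM, Cdon had a fold of 1.02, replicate 2 over replicate 1 (1150 and 1680 counts), whereas its TPM had a fold of 0.873. The effective length assigned to Cdon was 3884 bases in replicate 1 and 4583 bases in replicate 2. Ptch1 went the other way, with a fold of 0.896 in CPM and 0.977 in TPM, and its effective length was 6762 and 6266 bases. The effective length of a gene is the average over its transcripts, weighted by their estimated shares, so these lengths follow the transcript shares given next. Shh, Smo, Gas1 and Gli1 each had 1 transcript in the tables and the same length in both libraries.

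Ptch1 had 8 transcripts in the tables, of which 3 held at least 10% of its TPM on average. Ptch1-202 led with 70.2% in replicate 1 and 56.6% in replicate 2 (12.1 and 9.55 TPM). The authors' deposited intervals for its TPM, 10.4 to 12.7 and 8.30 to 10.2, did not overlap. Ptch1-201, the transcript with the longer coding sequence, had 9.73% and 18.1% (1.68 and 3.06 TPM), with deposited intervals that met, 1.04 to 2.37 and 2.29 to 3.66. Ptch1-204, annotated for nonsense-mediated decay, begins 7725 bases before Ptch1-201 and had 14.7% and 12.0%.

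These Ptch1 shares are not a direct count of start sites. Ptch1-201 has 801 exonic bases outside Ptch1-202, of which 374 lie in its first exon and 427 in its last exon, mostly where Ptch1-202 has an intron. Ptch1-202 has only 78 bases outside Ptch1-201, all in its first exon. Reads over the last exon thus weigh on the estimate as well as reads over the starts printed above.

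Gli3 was divided among 3 of its 4 transcripts, and the shares were nearly the same in both libraries. The full-length Gli3-201 took 60.5% and 60.6% (17.8 TPM in each). Gli3-203, the transcript that reads into the intron at the junction shown above, took 22.3% and 22.8%, from 323 and 469 counts. Gli3-202, whose annotation stops before the coding end and which has another first exon, took 17.3% and 16.5%. In expected counts, which are not divided by length, Gli3-201 held 83.6% and Gli3-203 10.9%. The full-length Gli3-201 alone, at 17.8 TPM, still lay above Gli2 and Gli1, whose whole genes had 12.5 and 12.1 TPM. That gap is smaller than the one for the whole Gli3 gene, and whether it passes the threshold was not tested. The Gli3 share and its called ratios to Gli2 and Gli1 thus depend in part on TPM assigned to Gli3-203 and Gli3-202.

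Cdon was the only one of the 5 members with several transcripts whose leading transcript differed between the libraries, as it did for 9.50% of 9833 protein-coding genes with 2 or more transcripts. Cdon-206 led in replicate 1 (47.1%, against 38.1% for Cdon-202) and Cdon-202 in replicate 2 (48.2%, against 42.1%). The deposited TPM intervals of Cdon-202 in the libraries overlapped (5.14 to 6.59 and 6.24 to 7.42), as did those of Cdon-206. Cdon-206 is an incomplete annotation that stops within the coding sequence, and only 152 of its exonic bases lie outside Cdon-202. In expected counts Cdon-202 held 74.8% and Cdon-206 22.6%. The full-length Cdon-202 alone, at 6.45 and 7.13 TPM, lay below Gli2 (12.3 and 12.7 TPM) and Gli1 (12.2 and 11.9 TPM). The rank of Cdon above these genes, its co-receptor share and its ratios thus depend on TPM assigned to incomplete transcripts. Gli2 rested mainly on Gli2-201 (91.8% and 90.0%), and 1 transcript of Boc, ENSMUST00000023370, held 100% and 96.2%.

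**Figure D3:**
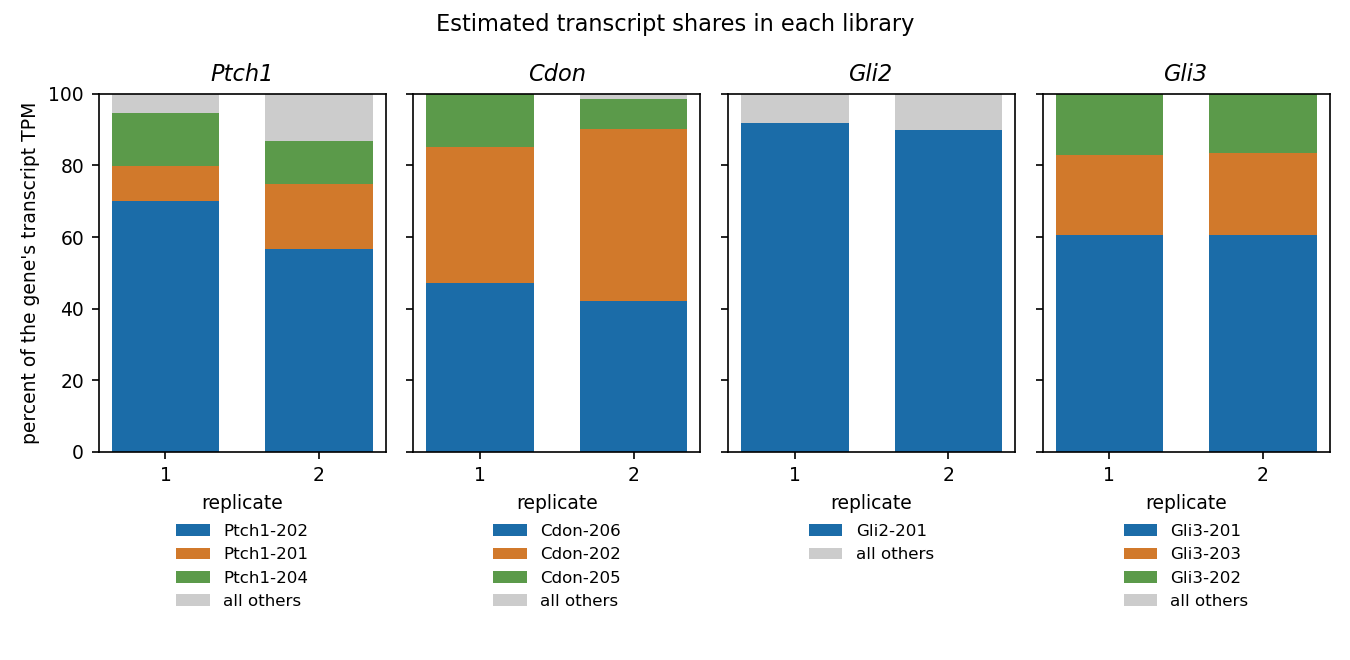
Percent of each gene's transcript TPM assigned to its transcripts in replicate 1 and replicate 2, for Ptch1, Cdon, Gli2 and Gli3, with transcripts under 10% on average summed in grey. The bars of Gli3 match between the libraries, with Gli3-201 at 60.5% and 60.6%, while Ptch1-202 has 70.2% in replicate 1 and 56.6% in replicate 2.

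Promoter windows from RefSeq (GRCm38.p6, 250 bases before to 50 after the start) were found for 6 of the 9 genes: Ptch1, Smo, Gas1, Cdon, Gli2 and Gli3. The Gli consensus GACCACCCA, searched on both strands, was in 0 of these 6 windows and in 0.253% of 32851 windows of the same length. With its first 8 bases alone it was in 0 of the 6 and in 0.807% of all. With 1 mismatch allowed it was in 0 of the 6 and in 6.74% of all. The absence says only that these letters are not in these windows.

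The other genes of the pathway were described in 4 lists, and in TPM with a pseudocount of 1 no gene in them differed past a log2 of 1 between the libraries. That pseudocount shrinks the difference of low genes. In CPM, with no pseudocount, 2 genes of the lists were past it, both higher in replicate 2: Ihh (1.75, from 0.46 to 3.31) and Scube2 (1.15, from 0.57 to 1.77). Both had a mean under 1 TPM (0.315 and 0.895 TPM). The share of all protein-coding genes past 1 on that scale was not computed, so this count has no background to be read against. For the counts and medians of all 4 lists, the background is 61.8% of protein-coding genes at 1 TPM in both libraries, with a median of 5.22 TPM. Among other ligands and genes of ligand release, 4 of 7 reached 1 TPM in each library, with a median of 7.88 TPM. Scube1, a secreted carrier of ligand, had 29.4 and 26.9 TPM, and Disp1, which releases lipid-bearing ligand from the cell, had 15.2 and 15.6 TPM. Scube2, another carrier, had 0.600 and 1.19 TPM. The release gene Disp1 thus stood above all 3 ligands in each library.

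Among other surface proteins 5 of 6 reached 1 TPM in both libraries, with a median of 12.2 TPM. Gpc3, a glypican that competes with Patched for ligand, had 768 and 712 TPM and exceeded all 9 members. Mgrn1, a ubiquitin ligase that limits Smoothened at the surface, had 64.8 and 62.7 TPM. Gpr161, a ciliary receptor that restrains the pathway, had 1.88 and 1.96 TPM, and Lrp2, an endocytic receptor for Shh in the forebrain, had 1.09 and 0.840 TPM.

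All 18 genes of signal relay and Gli processing reached 1 TPM in both libraries, with a median of 22.4 TPM. The protein kinase A subunit Prkar1a (311 and 323 TPM) and the casein kinase Csnk1a1 (253 and 243 TPM), parts of the kinases that mark Gli proteins for processing, were highest. They also act outside this pathway. Kif7, the kinesin of the cilium tip (9.68 and 9.47 TPM), and Ulk3, a kinase that acts on Gli proteins (6.53 and 6.82 TPM), were lowest.

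All 12 targets listed for facial mesenchyme reached 1 TPM in both libraries, and their median was 21.4 TPM. The cyclins Ccnd2 (168 and 173 TPM) and Ccnd1 (106 and 126 TPM), which many signals control, were highest. The forkhead gene Foxl1 (4.31 and 3.81 TPM) and Hsd11b2, a steroid enzyme (5.44 and 5.01 TPM), were lowest. Beside them the targets Gli1 and Ptch1, at 12.1 and 17.1 TPM, lay below the median of the list.

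**Figure D4:**
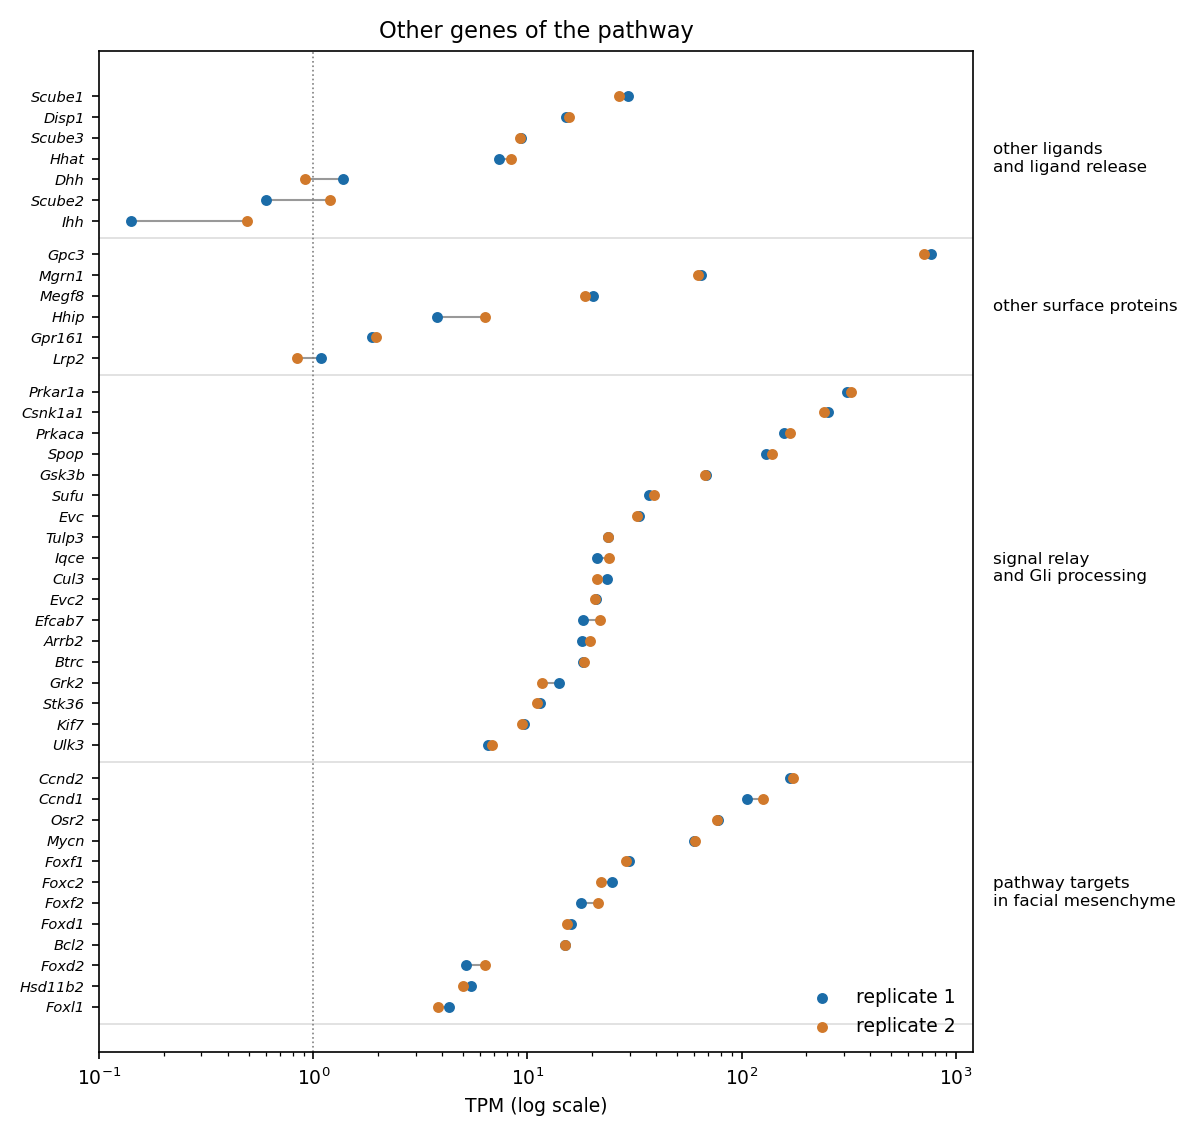
TPM (log axis) of the other pathway genes in replicate 1 and replicate 2, grouped by role, with 1 TPM as a dotted line and a grey line joining the libraries. Ihh, at 0.140 and 0.490 TPM, Scube2, at 0.600 and 1.19 TPM, and Hhip, at 3.77 and 6.33 TPM, show wide gaps. All genes of signal relay lie to the right of 1 TPM.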

How the data were processed

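Both tables of each library, 1 per gene and 1 per transcript, were used as deposited. Per the deposited notes beside them, reads were aligned to mm10 and quantified against GENCODE M4. Aligner and quantifier are named in none of the sources used. The deposited expected counts are estimated reads, in which a read that matches several features is shared out. The deposited TPM and posterior mean TPM divide these by effective length and scale each library to a common total with the spike-ins inside it. The deposited FPKM values served as an alternative. Interval bounds of TPM were also deposited, at a level not stated.

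Symbols, transcript names, exons and coordinates came from GENCODE M21 (GRCm38, the build of the tables). All 79 listed pathway and marker genes were measured, and 1 further gene and its ratio are not reported here. The genes and lists were chosen with earlier results of these data known.

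Computed here were means with SD over 2 libraries, log2 ratios, transcript shares, exact Poisson and Clopper-Pearson 95% intervals of expected counts rounded to whole numbers, and TMM and RLE factors (edgeR 4.0.16, R 4.3.3). No p-value was computed. The intervals hold only counting error and leave out the error of sharing reads among features. They can be too narrow even for counting error, because reads lacking molecular identifiers can be copies of 1 molecule. Python 3.11.15, numpy 2.4.6, pandas 2.3.3, scipy 1.17.1 and matplotlib 3.10.9 were used. Named genes are the 9 members, the pathway genes in a fixed pair, and the 2 highest and 2 lowest of each further pathway list. Nkx2-1 and the floor plate and notochord markers were singled out after their values were seen, and overlapping genes were named by position. The transcript starts and the junction shown, the interval of the count ratio, the leading transcript per library and the motif search with 1 mismatch were chosen after seeing the data. No protein sequence was used here. Alternatives covered the posterior mean, FPKM, counts not divided by length, TMM and RLE scaling, scaling without or to spike-ins, pseudocounts, minimums, motif length and each library alone.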

Additional observations from a re-analysis of the deposited data

How the results depend on the processing

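No paired analysis was possible because there was 1 group. With 1 library on each side, no replicate could be left out of the library difference. The count of members that differed between the libraries stayed at 0 under all 10 alternatives. Of the protein-coding genes, 34 differed, against 21 in posterior mean TPM, 96 with a pseudocount of 0.1 and 11 with a minimum of 10 TPM. Scaling to the spike-ins moved the median log2 difference of these genes from 0.00 to -0.12, and that of the members to -0.14. The median level of the 9 genes, 17.1 TPM, was 18.4 TPM without spike-ins in the total and 69.3 CPM in counts not divided by length, where 5 of the 9 genes kept their rank.

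In counts not divided by length, the log2 ratio of Ptch1 over Smo fell under the threshold (-0.82), those of Ptch1 over Gli1 (1.37) and Boc over Cdon (1.00) passed it, and Gli3 over Sufu changed sign (0.16). Such counts favour long genes. Shh over Ihh was 0.85 with a pseudocount of 1. Leaving out each library in turn gave 0.87 to 1.06 for Boc over Cdon and -0.05 to 0.59 for Shh over Dhh. The number of called ratios, 9 of 14, ranged from 8 to 10. At a minimum of 10 TPM in both libraries, 2 of 7 genes of ligands and ligand release and 3 of 6 surface proteins remained. Depth limits low genes such as Ihh, which rested on 6 and 29 counts.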

Other observations

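Other annotated genes overlap the members, and the labels do not say whether strand was kept. On the strand opposite Shh, Gm26894 had 0.230 and 0.310 TPM in replicates 1 and 2 (4.14 and 7.96 counts), and 9530036O11Rik had 0 and 2.00 counts. Arhgap9, whose end overlaps the end of Gli1 on the opposite strand, had 1.34 and 2.03 TPM, and Gm6556, opposite the start of Gli3, had 1.90 and 1.89 TPM. On the same strand, A930032L01Rik within the span of Ptch1 had 2.00 and 2.12 TPM, Gm13717, a pseudogene within Smo, had 4.30 and 5.61 TPM, and Gm25630, a small nuclear RNA within Cdon, had 6.36 and 13.4 TPM from 7 and 21 counts. All of these were below the level of the member they overlap. These genes were picked by position, and their part in the members' levels was not tested.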
